A study of Mus musculus with 6 samples.

Results

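The genes described here encode enzymes that convert superoxide and peroxides chemically, and the thioredoxin that serves some of them. They are the peroxiredoxins Prdx1 to Prdx6, thioredoxin (Txn1), the superoxide dismutases Sod1 and Sod2, and catalase (Cat), chosen by name as a family of 10 genes among the 18253 gene symbols found in at least 1 library. All 10 were listed in all 6 libraries, and all 10 passed the filter on low values. Transcript levels were measured by RNA sequencing of liver from C57BL/6 mice of postnatal day 21. Every mouse was dosed with alpha-naphthylisothiocyanate, or ANIT, which damages the cells lining bile ducts and so brings on cholestasis. In 3 libraries the mice were also given celastrol, a plant triterpenoid, with treatment lasting 5 days, and in 3 libraries they were given ANIT without celastrol. Every group carries ANIT, so the comparison shows how liver with celastrol differed from liver without it during ANIT injury, and not how either differed from healthy liver. The labels give no doses and do not say whether a library came from 1 animal or a pool, so p-values speak of the spread among these libraries, which may be technical.

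Superoxide dismutases turn superoxide into hydrogen peroxide and oxygen, Sod1 in the cytosol and Sod2 in the mitochondrial matrix. Catalase, a heme enzyme packed into liver peroxisomes, breaks hydrogen peroxide down directly. Peroxiredoxins reduce peroxides with a reactive cysteine and are then reset, most of them by thioredoxin, which thioredoxin reductase recharges at the expense of NADPH. Sulfiredoxin (Srxn1) rescues peroxiredoxin molecules whose cysteine has been oxidised too far. Several of these genes, among them Prdx1, Txn1, Srxn1 and the thioredoxin reductase gene Txnrd1, are known targets of the transcription factor Nrf2.

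Most of the family did not differ detectably between the groups. Prdx3, the mitochondrial peroxiredoxin, and Txn1, the cytosolic thioredoxin, fell with celastrol, and no gene of the family rose. Levels are in FPKM, a unit that divides fragments by gene length and by the size of the library, and the test was limma on log2(FPKM + 1) with Benjamini-Hochberg adjustment over all 10593 tested genes and a threshold of 0.05. The 2 falls are 20% of the 10 genes, and 20.6% of all tested genes were called lower with celastrol, so the count of the family lies at the background. At an unadjusted p of 0.05, 3 of the 10 genes were lower (Prdx3, Prdx4 and Txn1) and 0 were higher. Higher calls made up 4.41% of tested genes, and calls in either direction 25.0%. The median log2 fold change over the 10 genes was -0.14, against -0.17 over all tested genes. The median of all genes moved to -0.02 under median-ratio scaling, which sets libraries level on their typical gene. Calls over all genes were 800 higher and 1163 lower under that scaling, against 467 higher and 2185 lower without it. Of the 10 genes 0 passed under that scaling (2 were lower at an unadjusted p of 0.05 in limma), while 18.6% of all tested genes were called in either direction.

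**Figure D1:**
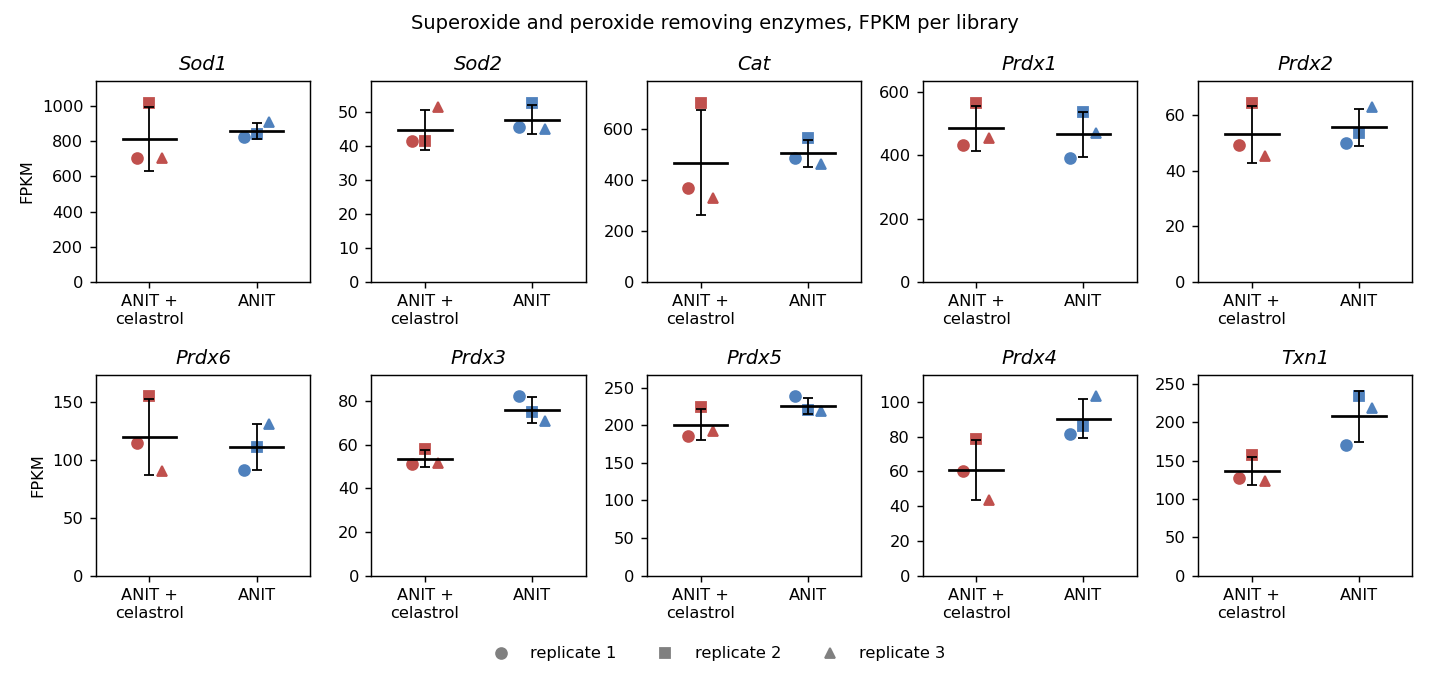
FPKM of the 10 genes in each library, with ANIT plus celastrol at the left of each panel and ANIT at the right. Symbols mark replicates, horizontal lines the group means and bars the SD of 3 libraries. The groups are separate for Prdx3, Prdx4 and Txn1 and overlap for the other 7 genes. Celastrol replicate 2 is the highest celastrol library in every panel but that of Sod2.

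The spacing between low values put 1 FPKM over 1 kilobase at an estimated 18.7 to 19.7 reads in every library. The estimate rests on annotated exon lengths, while the lengths behind the FPKM are not given. Its score, highest where values fall on whole reads, was 0.39 to 0.48, against 0.24 to 0.35 at the next best depth. By that estimate the lowest value of the family, 41.4 FPKM for Sod2 in celastrol replicate 2, stood for about 795 reads per kilobase. At such a depth counting error was small beside the spread between libraries. Celastrol replicate 2 stood apart from the other libraries of its group. Its 10 most abundant genes took 20.7% of its summed FPKM, against 33.2% and 31.5% in celastrol replicates 1 and 3 and 20.3% to 21.9% in the ANIT libraries. It was the highest celastrol library for 9 of the 10 genes, all but Sod2, and for 63.6% of all tested genes. All 8 hepatocyte markers were listed. Their summed FPKM was 23267 to 29208 with celastrol and 47360 to 64832 with ANIT, and of the 8 only Alb, which encodes albumin, was called (lower with celastrol). Alb averaged 6985 ± 2658 FPKM with celastrol and 32513 ± 5321 FPKM with ANIT (SD, n = 3 each). Each other hepatocyte marker had overlapping groups, so the lower sum was mainly that of Alb. In bulk liver, fewer cells of a type and less RNA per cell cannot be told apart.

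The genes span a wide range of FPKM. FPKM is scaled by gene length, but the lengths used are not given, and annotated exon bases run from 1051 for Txn1 to 10008 for Sod2. The order of genes below is therefore an order of deposited FPKM and may shift with the lengths chosen. Sod1 had the highest value in every library, between 704 and 1021 FPKM. Cat and Prdx1 came next in both groups, and their ranges overlapped in both. Prdx5 followed, and in celastrol livers it lay above Txn1 without overlap, at 185 to 224 FPKM against 124 to 157 FPKM. In ANIT livers the ranges of Prdx5 and Txn1 overlapped. Prdx6, Prdx4, Prdx3 and Prdx2 filled the lower ranks, and Sod2 had the lowest mean in both groups. Neighbours whose ranges overlapped in both groups were Cat and Prdx1, Prdx4 and Prdx3, and Prdx2 and Sod2.

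Sod1, the copper and zinc enzyme (chromosome 16, positions 90220754 to 90226329, plus strand in mm10), measured 704, 1021 and 707 FPKM in celastrol replicates 1, 2 and 3, against 823, 843 and 910.3 FPKM in ANIT replicates 1, 2 and 3. Celastrol replicate 2 was above every ANIT library and the other celastrol libraries were below them. The means were 810.5 ± 182 FPKM with celastrol and 859 ± 45.8 FPKM with ANIT (SD, n = 3 each). The log2 fold change was -0.10 (SE 0.19, BH-adjusted p by limma = 0.71), and the 95% interval of the fold ran from 0.690 to 1.25. Sod2, the manganese enzyme of mitochondria (chromosome 17, positions 13006846 to 13040063, plus strand), measured 41.4, 41.4 and 51.6 FPKM with celastrol, against 45.7, 52.8 and 44.98 FPKM with ANIT. The groups overlapped, with means of 44.8 ± 5.86 FPKM with celastrol and 47.8 ± 4.35 FPKM with ANIT (SD, n = 3 each). Its fold lay between 0.751 and 1.17 (95% interval, BH-adjusted p by limma = 0.63).

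Among 10 tested genes that serve the dismutases or handle their metals, 2 rose and 2 fell with celastrol. Of all tested genes, 4.41% were called higher and 20.6% lower, so the lower count lies at the background. Slc39a14, an importer of zinc, manganese and iron, averaged 143.5 ± 14.6 FPKM with celastrol and 78.7 ± 9.33 FPKM with ANIT (SD, n = 3 each, log2 fold change 0.86, BH-adjusted p by limma = 0.0067). Mt1, which encodes a metallothionein, also rose (log2 fold change 0.66, BH-adjusted p by limma = 0.036). Atox1, a copper chaperone, measured 122, 122 and 116 FPKM with celastrol, against 209, 195 and 186 FPKM with ANIT (log2 fold change -0.71, BH-adjusted p by limma = 0.0070). Slc25a39, a mitochondrial carrier, fell as well (log2 fold change -0.74, BH-adjusted p by limma = 0.0071). Ccs, the chaperone that loads copper into Sod1, did not pass (log2 fold change 0.15, BH-adjusted p by limma = 0.59). The extracellular dismutase Sod3 measured 14.0, 11.99 and 3.61 FPKM with celastrol, against 6.99, 2.85 and 6.59 FPKM with ANIT, and did not pass (BH-adjusted p by limma = 0.41).

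Catalase varied more between celastrol libraries than any other gene of the family. Cat (chromosome 2, positions 103453849 to 103485160, minus strand) measured 369.8, 704 and 329 FPKM in celastrol replicates 1, 2 and 3, against 485, 565 and 461 FPKM in ANIT replicates 1, 2 and 3. Celastrol replicate 2 was above every ANIT library, and celastrol replicates 1 and 3 were below every ANIT library. The means were 468 ± 205 FPKM with celastrol and 503.7 ± 54.4 FPKM with ANIT (SD, n = 3 each). Celastrol over ANIT, the log2 difference was -0.19 (SE 0.28, BH-adjusted p by limma = 0.66). Without celastrol replicate 2 the log2 fold change was -0.52 and Cat was called lower (BH-adjusted p by limma = 0.025). That fit called Cat, Prdx3, Prdx4 and Txn1, or 4 of the 10 genes, and 32.0% of all tested genes were lower in it. Red blood cells are also rich in catalase and in Prdx2. The summed FPKM of the erythroid markers, of which 10 of 13 were listed with Ahsp and Hbb-b1 among those in no library and set to 0, was 70.4, 229 and 52.2 in celastrol replicates 1, 2 and 3 and 231 to 430 in the ANIT libraries. The part of these markers in the Cat and Prdx2 values was not tested.

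Glutathione peroxidase Gpx1, which removes hydrogen peroxide with glutathione, had the same order of celastrol libraries as Cat, at 542, 1203 and 492 FPKM with celastrol, against 912, 1068 and 990.4 FPKM with ANIT. Gpx1 did not pass (log2 fold change -0.53, BH-adjusted p by limma = 0.27). Relative to Cat in the same library, Gpx1 was at 1.46, 1.71 and 1.495 with celastrol and at 1.88, 1.89 and 2.15 with ANIT. Those ratios did not overlap. Genes that build peroxisomes, where catalase resides, were called lower in 5 of 20 tested cases and higher in 0 (at an unadjusted p of 0.05 limma gave 9 lower and 0 higher), beside 20.6% of all tested genes called lower. The 5 were Abcd2, Slc25a17, Pex19, Pex3 and Pex5. Abcd2, a peroxisomal fatty acid transporter, had a log2 fold change of -1.70 (BH-adjusted p by limma = 0.0047), and Slc25a17, a peroxisomal carrier, had one of -0.92 (BH-adjusted p by limma = 0.0054). This list had 12 calls without celastrol replicate 2, a fit that called 36.5% of all tested genes, and 3 without celastrol replicate 1. It had 3 under median-ratio scaling or quantile normalization and 10 after rescaling to TPM.

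Of 19 tested genes whose products make superoxide or hydrogen peroxide, 3 were called higher and 4 lower. The shares over all tested genes were 4.41% higher and 20.6% lower, so the lower count lies near the background. Hao1, a peroxisomal glycolate oxidase of hepatocytes, averaged 125 ± 19.4 FPKM with celastrol and 55.1 ± 5.59 FPKM with ANIT (SD, n = 3 each, log2 fold change 1.16, BH-adjusted p by limma = 0.0027). Cybb, the catalytic subunit of the phagocyte NADPH oxidase, also rose (log2 fold change 0.81, BH-adjusted p by limma = 0.038). Beside it, 4 of 6 tested neutrophil markers rose (S100a8, S100a9, Ngp and Ly6g), against 4.41% of all tested genes. The summed FPKM of the 10 neutrophil markers was 70.6 to 98.6 with celastrol and 32.9 to 57.0 with ANIT. The part of the neutrophil markers in the Cybb result was not tested. Xdh, xanthine dehydrogenase, fell (log2 fold change -0.61, BH-adjusted p by limma = 0.0081), as did Aox1, Acox2 and Smox. The list had 4 calls in all without celastrol replicate 1. The Xdh call was lost after quantile normalization (BH-adjusted p by limma = 0.066).

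Prdx1, Prdx2 and Prdx6 work mainly in the cytosol. Prdx1, the peroxiredoxin with the highest FPKM here (chromosome 4, positions 116685544 to 116700822, plus strand), measured 433, 567 and 456 FPKM with celastrol, against 393, 536 and 469 FPKM with ANIT. The groups covered nearly the same range, with means of 485 ± 71.7 FPKM with celastrol and 466 ± 71.8 FPKM with ANIT (SD, n = 3 each). The log2 fold change was 0.06 (SE 0.18, BH-adjusted p by limma = 0.82) and the 95% interval of the fold ran from 0.783 to 1.39. Prdx2 (chromosome 8, positions 84969587 to 84974834, plus strand) measured 49.5, 64.6 and 45.2 FPKM with celastrol, against 50.2, 53.8 and 62.9 FPKM with ANIT (BH-adjusted p by limma = 0.76, 95% interval of the fold 0.726 to 1.24). The Prdx2 groups overlapped. Of its exon bases in GENCODE release M21, 350 of 3050 are shared with Junb or Rnaseh2a on the opposite strand, and the strand setting of the counting is not given in the sources used here. Prdx6 (chromosome 1, positions 161240112 to 161251219, minus strand), which has a single catalytic cysteine and is reset by glutathione rather than thioredoxin, measured 114, 155 and 90.3 FPKM with celastrol, against 91.3, 111 and 131 FPKM with ANIT. Its groups overlapped, and the 95% interval of the fold was 0.744 to 1.53 (BH-adjusted p by limma = 0.79).

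Prdx3 and Prdx5 are the peroxiredoxins of mitochondria, Prdx5 being found in peroxisomes and cytosol as well. Prdx3 (chromosome 19, positions 60864051 to 60874556, minus strand) measured 50.9, 57.9 and 51.8 FPKM in celastrol replicates 1, 2 and 3, against 82.2, 74.9 and 70.8 FPKM in ANIT replicates 1, 2 and 3. All 3 celastrol libraries were below all 3 ANIT libraries. The means were 53.5 ± 3.83 FPKM with celastrol and 75.9 ± 5.78 FPKM with ANIT (SD, n = 3 each). Celastrol over ANIT, the log2 difference was -0.50 (SE 0.12, BH-adjusted p by limma = 0.024), and the fold was 0.709 with a 95% interval of 0.582 to 0.864. The call was kept without celastrol replicate 2. It was lost without celastrol replicate 1 or 3 or any 1 ANIT library, under median-ratio scaling and after quantile normalization (BH-adjusted p by limma from 0.051 to 0.11), with the value lower with celastrol in each of those fits. Prdx5 (chromosome 19, positions 6906697 to 6910106, minus strand) measured 185, 224 and 192.5 FPKM with celastrol, against 239, 220.4 and 219 FPKM with ANIT. Celastrol replicate 2 fell within the ANIT range and the gene did not pass (log2 fold change -0.17, SE 0.13, BH-adjusted p by limma = 0.37). Of the Prdx5 exon bases, 409 of 2139 overlap Trmt112 on the opposite strand.

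The mitochondrial partners of Prdx3 are thioredoxin 2 and its reductase. The reductase gene, Txnrd2, measured 7.41, 10.9 and 7.34 FPKM with celastrol, against 12.9, 15.0 and 13.8 FPKM with ANIT, and fell (log2 fold change -0.66, SE 0.15, BH-adjusted p by limma = 0.020). Txn2 measured 88.4, 91.6 and 81.6 FPKM with celastrol, against 117, 99.8 and 97.1 FPKM with ANIT. The Txn2 groups did not overlap, but the difference did not pass (log2 fold change -0.26, BH-adjusted p by limma = 0.18). Sod2, the dismutase of the same compartment, had overlapping groups. Prdx3 relative to Sod2 in the same library was 1.23, 1.40 and 1.004 with celastrol and 1.80, 1.42 and 1.57 with ANIT, without overlap.

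Prdx4, the peroxiredoxin of the endoplasmic reticulum, where it helps form disulfide bonds in new secretory proteins (chromosome X, positions 155323918 to 155340754, minus strand), measured 60.0, 78.5 and 43.6 FPKM with celastrol, against 81.6, 86.3 and 103 FPKM with ANIT. The groups did not overlap. The means were 60.7 ± 17.4 FPKM with celastrol and 90.3 ± 11.3 FPKM with ANIT (SD, n = 3 each). Prdx4 had a log2 fold change close to that of Txn1, -0.60, but a larger error (SE 0.22), and it did not pass (BH-adjusted p by limma = 0.079). It passed without celastrol replicate 2 (log2 fold change -0.80, BH-adjusted p by limma = 0.014) and after rescaling to TPM (BH-adjusted p by limma = 0.033). Of 3 partner genes of oxidative folding in the endoplasmic reticulum, named after their values were seen, 2 fell and 1 did not pass. Over all tested genes 20.6% were called lower, and 3 genes are too few to set against that share. P4hb, a protein disulfide isomerase, measured 727, 622.5 and 619 FPKM with celastrol, against 1223, 1050 and 936 FPKM with ANIT (log2 fold change -0.70, BH-adjusted p by limma = 0.020). Ero1l, an oxidase that recharges such isomerases, also fell (log2 fold change -0.52, BH-adjusted p by limma = 0.010). Ero1lb, a related oxidase, measured 19.2, 16.9 and 15.0 FPKM with celastrol, against 20.8, 26.0 and 21.9 FPKM with ANIT, and did not pass (BH-adjusted p by limma = 0.058).

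Thioredoxin had the lowest log2 fold change of the 10 genes, by a margin of under 0.01 over Prdx4. Txn1 (chromosome 4, positions 57943373 to 57956411, minus strand) measured 128, 157 and 124 FPKM in celastrol replicates 1, 2 and 3, against 169.95, 234 and 219 FPKM in ANIT replicates 1, 2 and 3. The highest celastrol library was below the lowest ANIT library. The means were 136 ± 18.3 FPKM with celastrol and 207.7 ± 33.5 FPKM with ANIT (SD, n = 3 each). Celastrol over ANIT, the log2 difference was -0.60 (SE 0.17, BH-adjusted p by limma = 0.039), and the fold was 0.660 with a 95% interval of 0.501 to 0.870. The call was lost without celastrol replicate 1 or 3 or ANIT replicate 2 or 3, under median-ratio scaling, after quantile normalization and with no filter on low values (BH-adjusted p by limma from 0.069 to 0.15). In each of those fits the value was lower with celastrol. Groups did not overlap for 3 of the 10 genes (Txn1, Prdx3 and Prdx4), with all 3 lower with celastrol, while 44.9% of all tested genes had groups that did not overlap and 36.6% did so with celastrol lower.

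**Figure D2:**
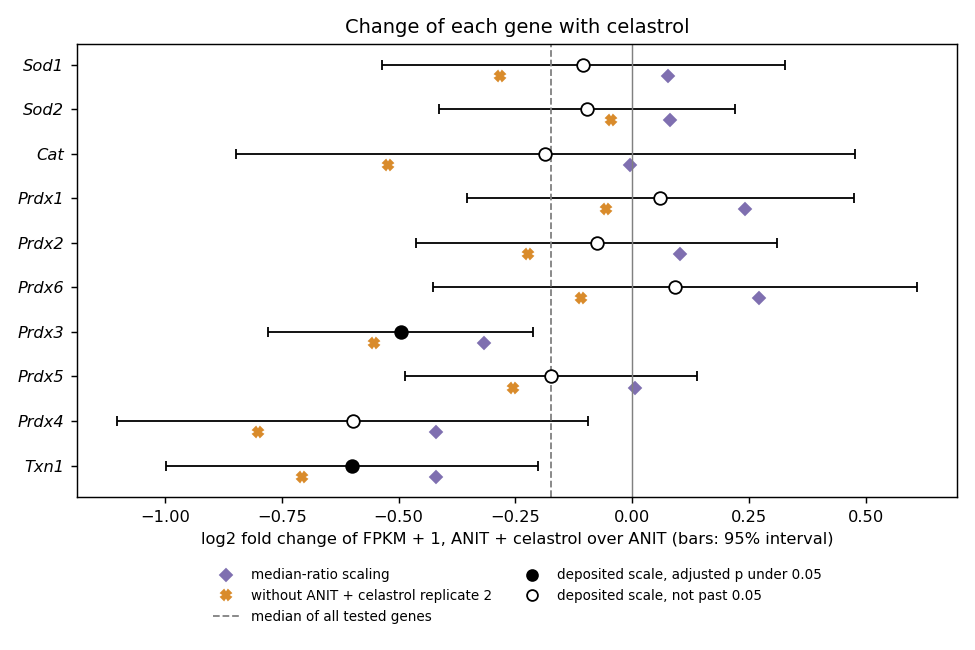
Log2 fold change of each gene, ANIT plus celastrol over ANIT, on the log2(FPKM + 1) scale with 95% intervals. Filled circles passed an adjusted p of 0.05 (Prdx3 and Txn1). Diamonds give the value under median-ratio scaling and crosses the value without celastrol replicate 2, where Cat moves to -0.52 and Prdx4 to -0.80. The dashed line is the median of all tested genes, -0.17.

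The partner genes of thioredoxin and peroxiredoxins, a list that also takes in glutaredoxin genes (Glrx) and oxidative folding genes, included several that fell with celastrol. Of 20 tested partner genes 8 fell and 0 rose (limma, at an unadjusted p of 0.05, gave 11 lower and 1 higher), with a median log2 fold change of -0.41. Over all tested genes, 20.6% were called lower and 4.41% higher, with a median of -0.17. Srxn1 measured 8.54, 6.41 and 8.48 FPKM with celastrol, against 67.4, 52.8 and 81.6 FPKM with ANIT (log2 fold change -2.94, SE 0.18, BH-adjusted p by limma = 0.00020). Txnrd1, the cytosolic thioredoxin reductase, measured 31.3, 34.1 and 29.4 FPKM with celastrol, against 54.2, 50.5 and 58.3 FPKM with ANIT (log2 fold change -0.76, SE 0.12, BH-adjusted p by limma = 0.0050). The others that fell were Txnl1, Ero1l, P4hb, Txnrd2, Glrx5 and Glrx3. Without celastrol replicate 1, or without ANIT replicate 2, the list had 4 calls. Without ANIT replicate 1 or 3 it had 5, and after quantile normalization 4.

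A ratio between genes of the same library does not change when each library is multiplied by a factor of its own, although quantile normalization does change it. The level of Srxn1 relative to Prdx1, its substrate, was 0.0197, 0.0113 and 0.0186 with celastrol, and 0.172, 0.0985 and 0.174 with ANIT. The groups did not overlap, and the log2 difference of that ratio was -3.16. Txn1 relative to Prdx1 was 0.295, 0.277 and 0.271 with celastrol and 0.433, 0.436 and 0.467 with ANIT, so the spread within each group was small beside the gap between them. An exact permutation test of 3 against 3 libraries cannot go below a two-sided p of 0.1, and these ratios were chosen after their values were seen. Prdx3 relative to Prdx1 was 0.118, 0.102 and 0.114 with celastrol and 0.209, 0.140 and 0.151 with ANIT. Of 45 pairs within the family, 13 had ratios that did not overlap, and all 13 included Prdx3, Prdx4 or Txn1. Those genes already had separate groups in FPKM, so the ratios are not further support. No such count was taken over pairs of all tested genes, so the 13 pairs have no background share beside them. Prdx4 relative to Prdx1 was 0.139, 0.138 and 0.0956 with celastrol and 0.208, 0.161 and 0.220 with ANIT. By contrast Txnrd1 relative to Txn1 overlapped, at 0.245, 0.217 and 0.237 with celastrol and 0.319, 0.216 and 0.266 with ANIT.

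**Figure D3:**
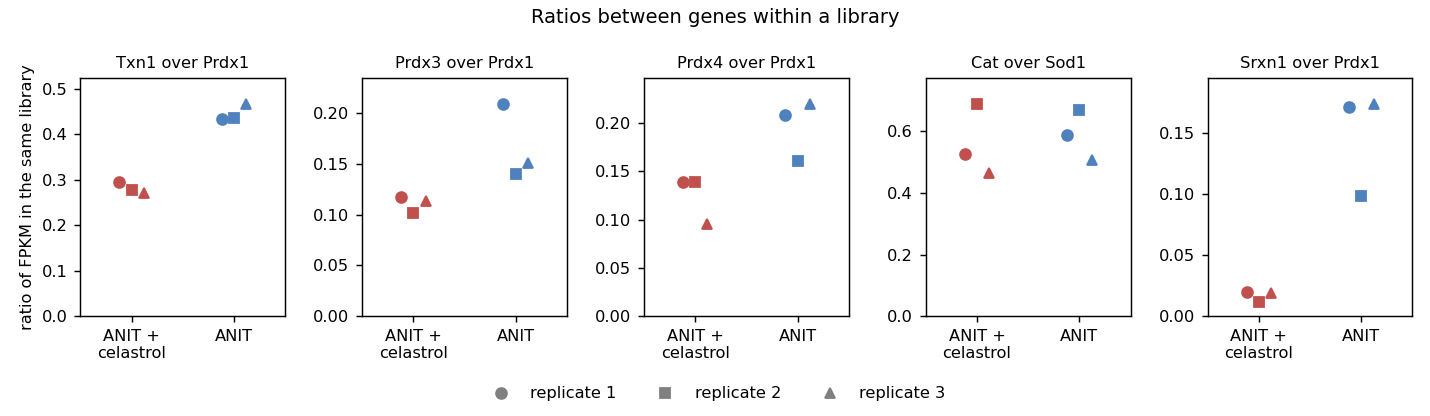
Ratio of FPKM between genes of the same library, with ANIT plus celastrol at the left of each panel and ANIT at the right. Symbols mark replicates. Txn1, Prdx3, Prdx4 and Srxn1 relative to Prdx1 are lower in all 3 celastrol libraries than in any ANIT library, while Cat relative to Sod1 overlaps between the groups.

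The levels were also taken as shares of the summed FPKM of the 10 genes. The size of each share depends on the gene lengths behind FPKM, which are not given. Sod1 held 33.3 ± 0.430% with celastrol and 32.5 ± 1.90% with ANIT (SD, n = 3 each). The 6 peroxiredoxins held 41.8%, 37.4% and 42.1% in celastrol replicates 1, 2 and 3, against 38.1%, 39.0% and 39.2% in ANIT replicates 1, 2 and 3. Catalase held 17.3%, 22.9% and 15.8% with celastrol, against 19.7%, 20.3% and 17.1% with ANIT. Thioredoxin held 5.99%, 5.12% and 5.92% with celastrol, against 6.91%, 8.42% and 8.15% with ANIT. The shares of Txn1, Prdx3 and Prdx4 did not overlap between groups, or 30% of the 10 genes, and 31.5% of all tested genes, taken relative to the same sum, did not overlap either. The sum itself was 2136, 3069.7 and 2090.4 FPKM in celastrol replicates 1, 2 and 3, against 2459, 2777 and 2691 FPKM in ANIT replicates 1, 2 and 3. It made up 0.355%, 0.523% and 0.359% of all FPKM with celastrol, against 0.454%, 0.522% and 0.493% with ANIT.

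**Figure D4:**
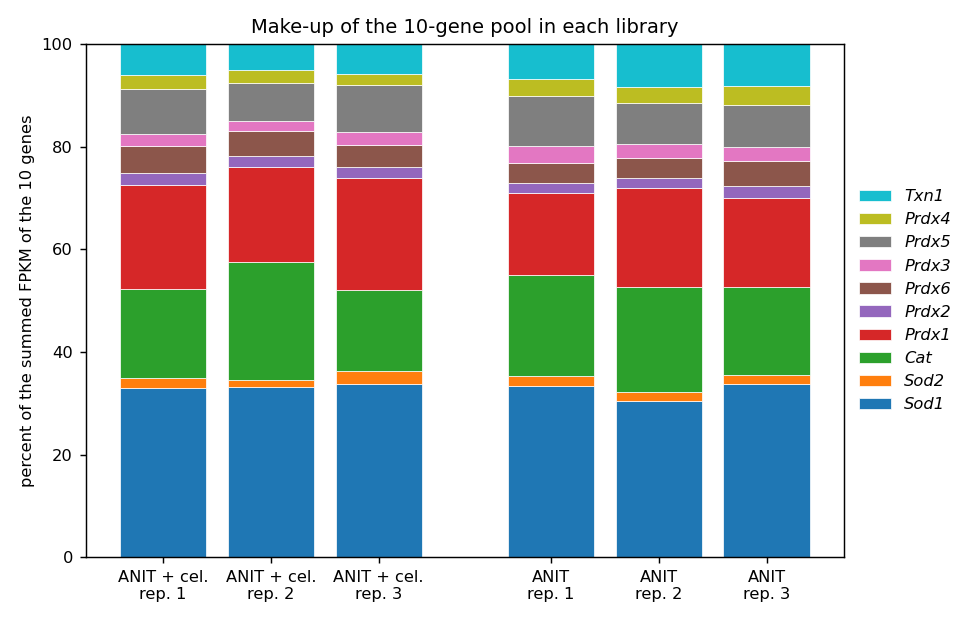
Percent of the summed FPKM of the 10 genes held by each gene, with 1 bar per library, ANIT plus celastrol at the left and ANIT at the right. The share of Txn1 is 5.12% to 5.99% in the celastrol bars and 6.91% to 8.42% in the ANIT bars. Cat reaches 22.9% in celastrol replicate 2.

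The other branch of peroxide removal, through glutathione, was lower with celastrol in 7 of 10 tested genes and higher in 1. Calls over all tested genes were 20.6% lower and 4.41% higher. Gsr, glutathione reductase, averaged 18.3 ± 1.25 FPKM with celastrol and 46.5 ± 1.07 FPKM with ANIT (SD, n = 3 each, log2 fold change -1.30, BH-adjusted p by limma = 0.00049). Gss, glutathione synthetase, averaged 19.0 ± 2.91 FPKM with celastrol and 47.9 ± 1.08 FPKM with ANIT (log2 fold change -1.30, BH-adjusted p by limma = 0.0011). The other 5 that fell were Gpx4, Gpx7, Gclc, Gclm and Ggct. Chac1, which degrades glutathione, was the gene that rose (log2 fold change 1.20, BH-adjusted p by limma = 0.0011). The median log2 fold change of this list was -0.89, against -0.14 over the 10 genes of the family and -0.17 over all tested genes.

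Of 17 tested genes listed as transcriptional regulators of antioxidant genes, 7 were called lower and 0 higher. At an unadjusted p of 0.05, limma gave 13 lower and 0 higher. Whether each of them acts on the 10 genes was not tested. Over all tested genes the shares were 20.6% lower and 4.41% higher. Nfe2l2, which encodes Nrf2, measured 11.8, 16.6 and 11.8 FPKM with celastrol, against 27.4, 26.4 and 24.6 FPKM with ANIT (log2 fold change -0.93, SE 0.14, BH-adjusted p by limma = 0.0053). Its dimer partner Mafg averaged 20.4 ± 3.79 FPKM with celastrol and 50.1 ± 6.84 FPKM with ANIT (SD, n = 3 each, log2 fold change -1.26, BH-adjusted p by limma = 0.0024). The other 5 were Maff, Mafk, Nfkb1, Rela and Pparg. The count was 12 without celastrol replicate 2, a fit that called 36.5% of all tested genes. It was 13 after rescaling to TPM, and 4 without celastrol replicate 1 or without ANIT replicate 2.

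**Figure D5:**
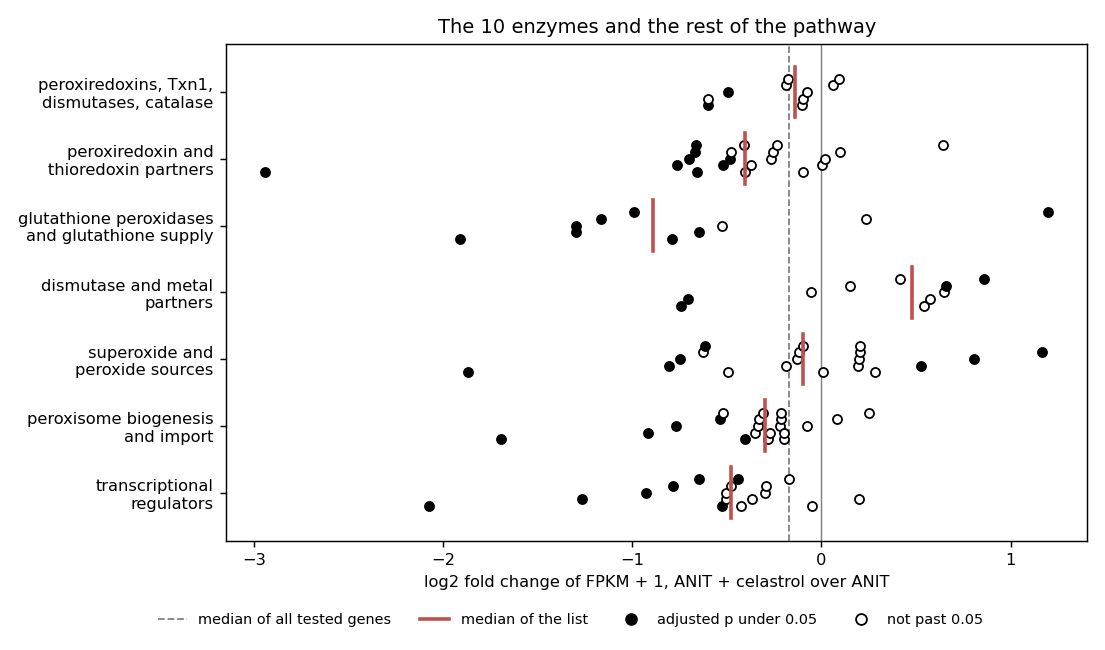
Log2 fold change on the log2(FPKM + 1) scale, ANIT plus celastrol over ANIT, for the 10 genes and 6 lists of the surrounding pathway. Each circle is a tested gene, filled where its adjusted p was under 0.05, and red bars are list medians. The median is -0.14 for the 10 genes, -0.41 for the partners of peroxiredoxin and thioredoxin and -0.89 for glutathione peroxidases and glutathione supply.

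The promoters of Prdx1 and Srxn1 are shown because both hold the letters of an AP-1 site while their values differed, and those of Txn1 and Prdx3 because these were the genes that fell. Each is the 250 bases before the RefSeq start of the gene in GRCm38.p6, 5′ to 3′ on the strand of the gene, at chr4:116685349-116685598, plus strand for Prdx1, chr2:152105274-152105523, plus strand for Srxn1, chr4:57956412-57956661, minus strand for Txn1 and chr19:60874539-60874788, minus strand for Prdx3. Capitals mark letters that match a searched motif on either strand.
Prdx1: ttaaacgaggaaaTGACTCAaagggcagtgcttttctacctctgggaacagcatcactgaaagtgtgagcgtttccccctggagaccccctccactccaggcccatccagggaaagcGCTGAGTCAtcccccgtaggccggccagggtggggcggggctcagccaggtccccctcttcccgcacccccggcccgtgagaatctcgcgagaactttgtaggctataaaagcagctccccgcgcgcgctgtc
Srxn1: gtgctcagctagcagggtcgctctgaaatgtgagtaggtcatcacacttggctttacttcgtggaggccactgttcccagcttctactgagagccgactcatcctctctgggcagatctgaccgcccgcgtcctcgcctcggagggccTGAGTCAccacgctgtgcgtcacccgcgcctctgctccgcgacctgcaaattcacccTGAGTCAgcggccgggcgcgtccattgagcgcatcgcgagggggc
Txn1: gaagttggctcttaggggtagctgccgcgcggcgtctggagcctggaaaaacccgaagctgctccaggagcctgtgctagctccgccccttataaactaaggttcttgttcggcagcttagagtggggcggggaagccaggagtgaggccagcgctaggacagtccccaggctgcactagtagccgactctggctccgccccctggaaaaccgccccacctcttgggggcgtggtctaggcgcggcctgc
Prdx3: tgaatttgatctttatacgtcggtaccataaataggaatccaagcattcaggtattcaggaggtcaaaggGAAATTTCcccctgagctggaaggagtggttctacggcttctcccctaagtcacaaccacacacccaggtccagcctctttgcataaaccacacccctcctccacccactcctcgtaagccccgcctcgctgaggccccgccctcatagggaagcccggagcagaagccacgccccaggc

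The motifs searched on both strands, in windows from 250 bases before to 50 after the start, were the antioxidant response element core TGACNNNGC, the AP-1 site TGANTCA, the heat shock element core GAANNTTC and the CCAAT box. RefSeq windows were found for 9 of the 10 genes, all but Prdx6. The antioxidant response element core was in 2 of the 9 windows (Prdx1 and Sod1) and in 12.4% of all 32851 windows. In Prdx1 it reads TGACTCAGC on the minus strand at positions -133 to -125, where it overlaps an AP-1 match at -131 to -125, and a second AP-1 match lies at -237 to -231. Prdx1 was the 1 gene of the 9 with AP-1 letters, which are in 7.81% of all windows. Srxn1 had AP-1 matches at -102 to -96 and at -45 to -39 and the antioxidant response element core at 29 to 37 after the start. The heat shock element core was in Prdx3 and Sod1 and in 7.86% of all windows, and the CCAAT box in Prdx4, Sod1, Sod2 and Cat and in 37.4% of all windows. Txn1, which fell, held none of the 4 motifs in its window, which says only that these letters are not there. A match is a description of letters and does not show that a factor binds.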

How the data were processed

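The authors deposited FPKM per gene symbol, with 1 table for each library (per the file headers). The submitters' processing notes name HISAT2, featureCounts and mm10. Annotation, gene lengths, the strand setting and the way FPKM were computed are not given there. Library titles gave the groups and replicate numbers. Symbols absent from a library were taken as 0, and 2 repeated symbols were dropped. The test covered genes reaching 1 FPKM in 3 or more libraries, used log2(FPKM + 1) and ran in limma 3.58.1 (R 4.3.3; empirical Bayes with trend and robust variance; group as the sole term). Fold changes and intervals are on that scale and understate changes of low genes. The fit was tested on simulated data. Depth was estimated from the spacing of low values of genes with 1 transcript, and FPKM alone keep no read totals. Coordinates are from GENCODE release M21 on mm10. A search with blastn 2.17.0 for other annotated transcripts of at least 95% identity over 200 bases found 2 for Prdx1, 1 each for Prdx2, Txn1 and Sod1 and none for the other 6, and none of those copies was listed under its own symbol, so reads of these 4 genes could be shared with them. The 10 genes and all lists were chosen with earlier results of these data known. Of each pathway list the 2 genes with the smallest p were named by rule, and further list genes were named after their values were seen. Of the list genes, 2 are not reported here. Alternatives were other scalings, filters, pseudocounts, variance models, a replicate block, a fold threshold and each library left out.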

Additional observations from a re-analysis of the deposited data

How the results depend on the processing

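The count of 2652 called genes was 4189 after rescaling to TPM, 209 against a fold of 1.5, and 1117 to 3810 with 1 library left out. Higher calls, 467, were 800 under median-ratio scaling, 864 after quantile normalization, 47 against a fold of 1.5 and 196 to 476 with 1 library left out. Lower calls, 2185, were 1163, 965 and 162 in the same settings, 3781 after rescaling to TPM and 911 to 3334 with 1 library left out. Of the family, 2 genes were called, against 1 with no filter, 0 under median-ratio scaling, after quantile normalization or against a fold of 1.5, and 0 to 4 with 1 library left out (limma). At an unadjusted p of 0.05, each of those fits with a count of 0 gave 2 lower genes, except the test against a fold of 1.5, which gave 0. The 39 calls in the pathway lists became 4 against a fold of 1.5 and stayed within 1.5 times that count in every other setting. The cause of these shifts was not tested. Small values that did not pass changed sign: Prdx1 and Prdx6 to -0.067 and -0.035 after rescaling to TPM; Prdx2, Prdx5, Sod1 and Sod2 to 0.10, 0.0061, 0.076 and 0.081 under median-ratio scaling; and Prdx2, Prdx5 and Sod2 to 0.19, 0.045 and 0.20 after quantile normalization. With 1 library left out Prdx1 ranged from -0.058 to 0.17, Prdx2 from -0.22 to 0.030, Prdx6 from -0.11 to 0.28 and Cat from -0.52 to 0.024. Replicate numbers are shared by the groups, but whether they pair the libraries is not known. Deviations of same-numbered libraries correlated at 0.15, 0.23 and -0.092, and those of differently numbered libraries at -0.24 to 0.18. So few libraries cannot show or exclude pairing. In a fit with a replicate block 2585 genes and the same 2 of the family were called. With 3 libraries a group, a p that misses the threshold does not show that a gene was unchanged.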

Other observations

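The genes whose values ran most alike over the 6 libraries, by the distance between log2(FPKM + 1) values centred on each gene's mean, were taken for the genes at the ends of the family. For Txn1, the lowest log2 fold change, they were Dsg2 (a desmosomal cadherin, distance 0.048), Atp6ap2 (an accessory protein of the vacuolar proton pump, distance 0.063) and Ralgps1 (distance 0.090). Dsg2 measured 11.5, 14.5 and 10.9 FPKM with celastrol, against 15.6, 21.7 and 20.9 FPKM with ANIT. Atp6ap2 measured 11.8, 14.1 and 11.3 FPKM with celastrol, against 15.9, 22.6 and 21.1 FPKM with ANIT. For Prdx6, the highest log2 fold change, they were Timp2 (an inhibitor of matrix metalloproteinases, distance 0.12), Dbi (an acyl-CoA binding protein, distance 0.14) and B2m (the light chain of MHC class I, distance 0.17). Dbi measured 694, 903 and 556 FPKM with celastrol, against 538, 666 and 713 FPKM with ANIT. In both sets celastrol replicate 2 was the highest celastrol library. The likeness is over 6 libraries and 10593 tested genes, and is given as a description with no test.

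Markers of other liver cells were measured beside the enzymes. For their counts of calls, the shares over all tested genes were 4.41% higher and 20.6% lower. Summed FPKM of the Kupffer cell and macrophage markers was 254 to 352 with celastrol and 145 to 312 with ANIT, with 0 of 10 tested genes called higher or lower by limma. That of the cholangiocyte markers was 21.5 to 50.5 with celastrol and 44.1 to 51.4 with ANIT, with 1 of 4 tested genes lower. Endothelial markers summed to 35.5 to 64.9 with celastrol and 23.0 to 42.9 with ANIT, with 1 of 6 higher. Stellate and fibroblast markers summed to 15.0 to 51.6 with celastrol and 19.6 to 36.55 with ANIT, with 0 of 5 called. Lymphocyte markers summed to at most 2.23 FPKM in any library and none passed the filter. Among the 6 tested erythroid markers 1 was higher (Klf1, a transcription factor) and 0 were lower, with 3 globin genes lower at an unadjusted p of 0.05 in limma. The globin gene Hba-a1 measured 23.3, 62.8 and 16.9 FPKM with celastrol, against 91.5, 129.97 and 72.4 FPKM with ANIT (log2 fold change -1.67, BH-adjusted p by limma = 0.054). Hbb-bs and Hba-a2 likewise had groups without overlap, with log2 fold changes of -1.74 and -2.35, and did not pass. The summed FPKM of the erythroid markers was 52.2 to 229 with celastrol and 231 to 430 with ANIT.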
